A study of Mus musculus with 9 samples.

Results

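The comparison described here set livers lacking SMRT against floxed control livers. Its members were the arrays labelled SMRT KO and those labelled with floxed, undeleted alleles, and they were 6 of the 9 samples of the series. Arrays were assigned by their genotype label, and the comparison itself was chosen with earlier results of these data known. Each group held 3 individual mice with 1 array per liver. SMRT KO mice carried a liver-specific deletion of SMRT, and the control mice were SMRT and NCoR fl/fl, that is, floxed at both corepressor genes with neither deleted. The remaining 3 mice, SMRT and NCoR KO and called double KO here, carried liver-specific deletions of both genes. They entered the model that estimates the spread and are cited beside single genes, gene groups and the counts over all genes. All 9 mice were female, euthyroid, 7 to 9 weeks old, on standard chow and of a 129SV/B6 mixed strain background. The labels give neither the Cre driver, nor the state of the NCoR alleles in the SMRT KO mice, nor whether littermates were used. The genotypes were taken from the labels without a check.

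SMRT is the sister protein of NCoR1. Both are scaffolds that nuclear receptors such as the thyroid hormone, retinoic acid and PPAR receptors bind when no activating ligand is present, and both bring a histone deacetylase complex to the target gene. Releasing the scaffold is one step by which a ligand turns a target on. Loss of a corepressor is therefore one way of asking which genes it holds down, directly or through other genes. In the liver the receptors concerned govern lipid, bile acid, retinoid and xenobiotic metabolism.

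The tissue label held against its markers. Alb and Apoa1, the defining hepatocyte markers, stood at log2 levels of 13.95, 13.95 and 13.95 in the control livers and 13.98, 13.95 and 13.94 in the SMRT KO livers for Alb and 12.63, 12.97 and 12.75 in the control livers and 12.93, 12.59 and 12.84 in the SMRT KO livers for Apoa1. The summed linear level, that is, the sum over genes of the level off the log2 scale, of the 13 hepatocyte markers was 118500 to 122300 in control and 117300 to 121600 in SMRT KO livers. Arrays have no sequencing depth, so precision is limited by their number. As a bound for background, the 95th percentile of the mean levels of 1390 olfactory and vomeronasal receptor genes, families with little known expression in liver, was taken. It lay at a log2 level of 5.97, and 13311 of 22180 genes exceeded it in the higher of the 2 group means. On the second principal component, with 15.99% of the variance, all SMRT KO livers (4.82, 9.32 and 15.47) lay above all controls (-20.62, 0.84 and -6.6). Control replicate 1 (-20.62) and SMRT KO replicate 3 (15.47) were its ends, and these 2 arrays also had the lowest array weights (0.7591 and 0.6233). They are thus extremes of a direction along which the groups also differ. Where such a mouse stood apart in a gene or list described at length, the value without it follows. The labels name separate mice, so the spread between samples includes that between animals.

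Below, levels are log2 RMA values given in the order of replicates 1, 2 and 3, and a fold change is the log2 difference of SMRT KO minus control, which also stands alone in brackets after levels. Differences were small across the transcriptome. Over all 22180 genes the median log2 fold change (SMRT KO minus control) was 0.0009, with quartiles of -0.07 and 0.07, and 0.735% of genes differed by at least 1.5-fold. By limma with Benjamini-Hochberg adjustment over all genes, 1 gene rose (0.00451% of those tested) and 0 fell. At an unadjusted p under 0.05, 591 genes (2.66%) were higher and 740 (3.34%) lower. In 842 genes (3.8%) all SMRT KO values lay above all control values, and in 967 (4.36%) all lay below. Among the 13311 genes above background the unadjusted shares were 3.04% higher and 2.18% lower, and the shares of genes whose groups did not overlap were 4.3% and 3.35%. Over all genes 0.523% rose and 0.32% fell in double KO against control livers, and 0.748% were higher and 0.437% lower in double KO than in SMRT KO livers. These shares are the background for every count of list members below. Genes named below for a small p were chosen on these SMRT KO arrays. Where double KO livers lie on the control side or beyond it, their gap from SMRT KO livers reuses these arrays. Such a pass adds no separate support for a change in SMRT KO livers. Groups of 3 allow no p below 0.1 in an exact permutation test, which was therefore not applied to single genes. Groups that do not overlap, in either direction, are the outcome that gives this p of 0.1. Over all genes 8.16% had such groups, which is not above that share. A lack of overlap by itself therefore sets no gene apart.

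**Figure D1:**
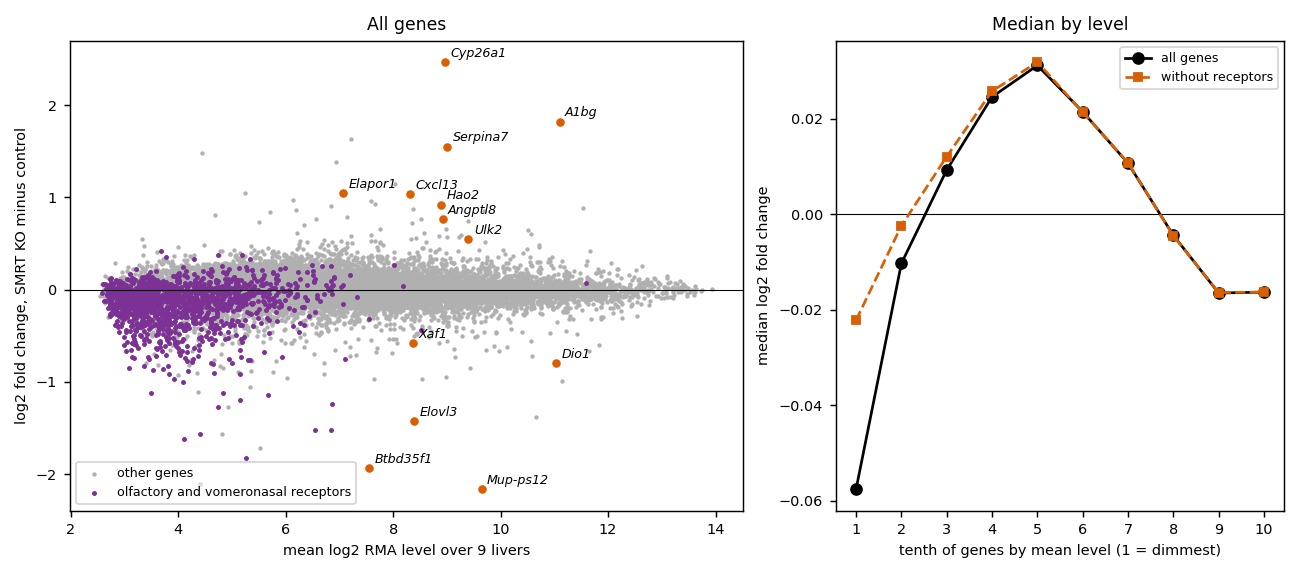
Log2 fold change (SMRT KO minus control) against the mean log2 RMA level over 9 livers for 22180 genes, with 1390 olfactory and vomeronasal receptor genes in purple and some named genes in orange (left), and the median log2 fold change in 10 equal bins of mean level (right; circles, all genes; squares, receptors left out). Elapor1 was the gene that passed the adjusted test, and the bin medians ran from -0.058 in the dimmest bin to 0.031 in the fifth.

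Elapor1, whose product sits in endosomal and lysosomal membranes and has a reported part in autophagy, was the gene that rose. Its log2 levels were 6.31, 6.09 and 6.37 in the control livers and 7.40, 7.25 and 7.25 in the SMRT KO livers. Every SMRT KO liver lay above every control by more than the spread within either group. Its log2 fold change was 1.04 (95% interval 0.86 to 1.23; limma adjusted p = 0.00874). The double KO livers stood at 7.62, 7.70 and 7.68, a log2 difference of 0.37 from the SMRT KO livers that did not pass (adjusted p = 0.0903). Leaving out SMRT KO replicate 1 (adjusted p = 0.083) or replicate 3 (0.0706), or fitting the 6 arrays alone (0.296), ended the call, and over all alternatives the adjusted p ran from 0.00444 to 0.296.

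Ulk2, a kinase that starts autophagy, had the next smallest p. It stood at 9.12, 9.17 and 9.09 in the control livers and 9.74, 9.71 and 9.59 in the SMRT KO livers, with no overlap, and its log2 fold change of 0.55 had an adjusted p of 0.0894. Double KO livers lay between at 9.37, 9.38 and 9.43. Of 24 autophagy genes, 8 had a fold change above 0, against 50.4% of all genes, and the median was -0.024. Besides Ulk2 only Wipi2, a phosphoinositide-binding autophagy protein, had an unadjusted p under 0.05, at a log2 fold change of -0.16. Ulk1, the related starter kinase, had a log2 fold change of -0.018. The 23 lysosome genes had a median of 0.028, with 0 higher and 1 lower at an unadjusted p under 0.05, the latter being Npc1 (-0.24), a lysosomal cholesterol exporter.

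**Figure D2:**
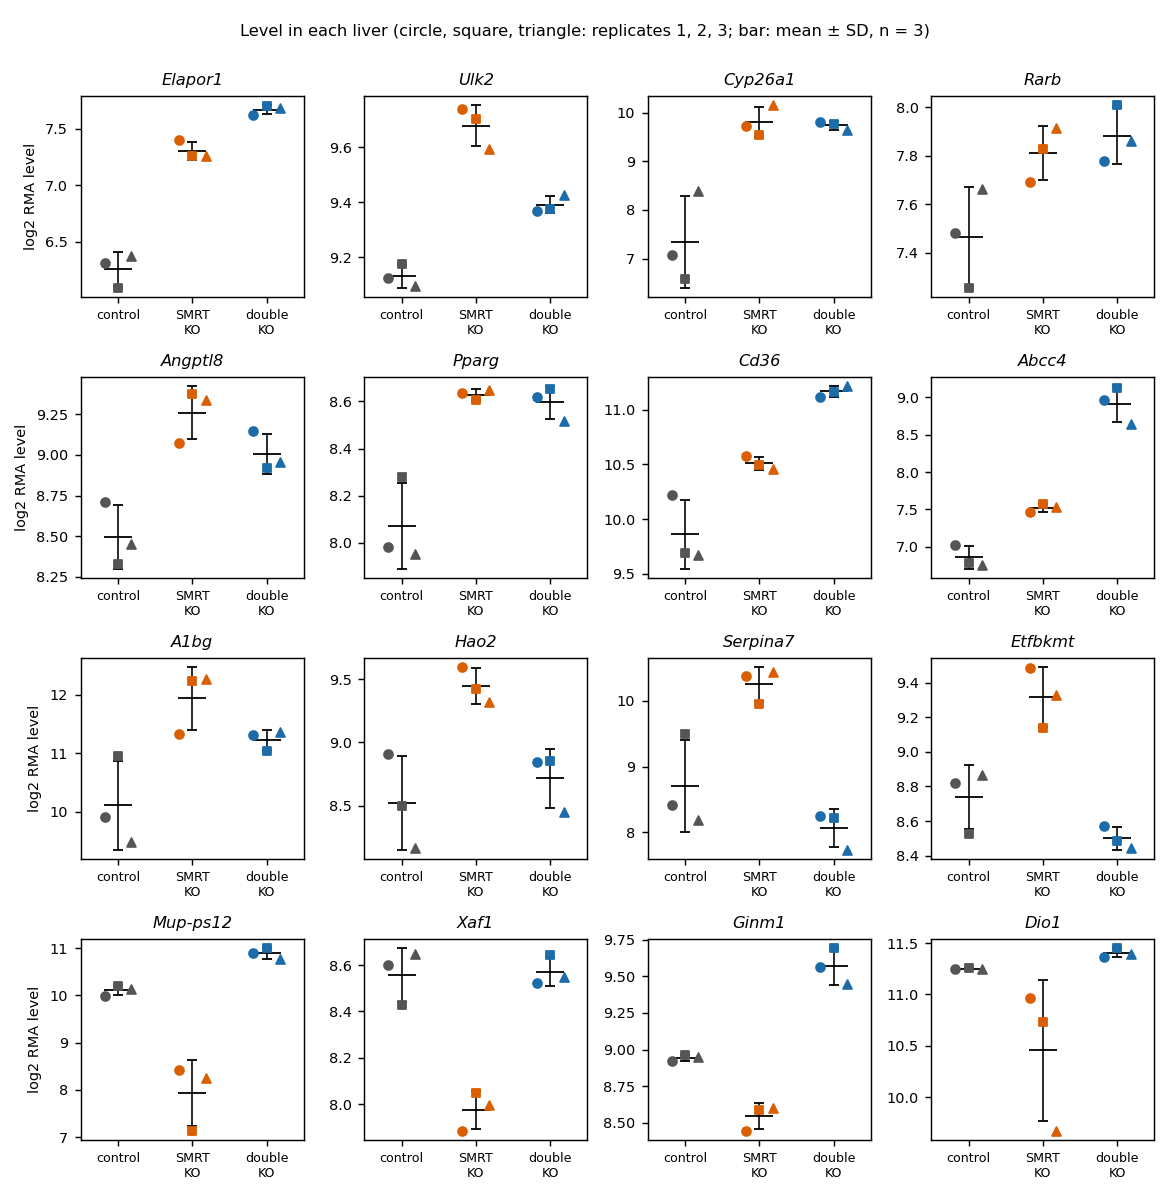
Log2 RMA level of 16 named genes in each of 9 livers (control, SMRT KO and double KO; circle, square and triangle for replicates 1, 2 and 3; horizontal lines, mean and SD, n = 3), each panel on its own axis. Every SMRT KO point lay above every control point in the panels from Elapor1 to Etfbkmt and below every control point in the 4 panels of the last row.

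Retinoic acid breakdown gave the largest fold change of any gene above background. Cyp26a1, the cytochrome P450 that degrades retinoic acid and is itself a classical target of the retinoic acid receptor, stood at 7.07, 6.57 and 8.39 in the control livers and 9.73, 9.54 and 10.16 in the SMRT KO livers. The 3 controls were widely spread, and the lowest SMRT KO liver still lay above the highest of them. Its log2 fold change was 2.47 (95% interval 1.61 to 3.32; adjusted p = 0.194) and did not pass. Without control replicate 3, the highest control, it was 2.99 and passed (adjusted p = 0.00269). Leaving out the control nearest the SMRT KO livers widens the gap, so such a pass, here or below, adds no support. In double KO livers the levels were 9.82, 9.77 and 9.65. Rarb, the retinoic acid receptor beta and another target of its own receptor family, stood at 7.48, 7.26 and 7.66 in the control livers and 7.69, 7.83 and 7.91 in the SMRT KO livers, without overlap (log2 fold change 0.35, adjusted p = 0.75). Bco1, which cleaves beta-carotene to retinal, was lower without overlap, at 7.27, 7.64 and 7.29 in the control livers and 6.92, 7.13 and 7.06 in the SMRT KO livers (-0.37, adjusted p = 0.826).

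The other genes of retinoid handling did not follow a common direction. Of 19 measured members, 10 were above 0 and the median was 0.0062. At an unadjusted p under 0.05, 2 were higher (Cyp26a1 and Rarb) and 1 lower (Bco1), against 2.66% and 3.34% of all genes. The log2 fold change was 0.11 for Lrat, which stores retinol as esters, and 0.12 for Aldh1a1, which makes retinoic acid. It was -0.022 for Dhrs3, which returns retinal to retinol, and -0.016 for Cyp26b1, the relative of Cyp26a1.

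The promoter sequences of the genes just described are shown because Cyp26a1 and Elapor1 differ in the hexamers that nuclear receptors bind. Sequences run from 250 bases before to 50 bases after the start of the gene, 5′ to 3′ on the gene's strand, from RefSeq on GRCm38.p6, and 34 of 39 named genes had an entry. Capitals mark the hexamer AGGTCA, the variant hexamer AGTTCA, the variant hexamer GGGTCA and the variant hexamer GGTTCA on either strand, and, in Cyp26a1, the whole direct repeat. Elapor1 lies on the minus strand at chr3:108536492-108536791, Ulk2 on the minus strand at chr11:61855043-61855342, and Cyp26a1 on the plus strand at chr19:37697558-37697857.
Elapor1: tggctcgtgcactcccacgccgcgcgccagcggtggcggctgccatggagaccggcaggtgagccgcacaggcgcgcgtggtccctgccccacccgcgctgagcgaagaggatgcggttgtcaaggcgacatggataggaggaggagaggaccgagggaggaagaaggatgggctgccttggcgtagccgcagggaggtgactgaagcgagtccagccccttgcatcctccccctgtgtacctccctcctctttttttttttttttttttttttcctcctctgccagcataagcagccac
Ulk2: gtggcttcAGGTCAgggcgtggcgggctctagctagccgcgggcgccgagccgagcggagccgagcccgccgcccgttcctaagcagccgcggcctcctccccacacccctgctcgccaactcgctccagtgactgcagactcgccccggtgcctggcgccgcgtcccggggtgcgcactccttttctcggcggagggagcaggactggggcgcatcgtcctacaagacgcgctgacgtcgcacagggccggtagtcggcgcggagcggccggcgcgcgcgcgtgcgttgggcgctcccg
Cyp26a1: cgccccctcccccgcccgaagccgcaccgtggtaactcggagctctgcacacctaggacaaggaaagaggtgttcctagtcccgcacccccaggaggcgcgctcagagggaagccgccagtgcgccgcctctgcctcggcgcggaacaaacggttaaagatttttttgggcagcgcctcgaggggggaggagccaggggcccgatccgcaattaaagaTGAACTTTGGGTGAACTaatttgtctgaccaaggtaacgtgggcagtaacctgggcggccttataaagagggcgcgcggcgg
The Cyp26a1 window holds 2 hexamers, AGTTCA each time on the minus strand, separated by 5 bases. This arrangement, a DR5, is the textbook form of a retinoic acid response element. It was found in 32 of 32851 promoters of the table (0.1%). The Ulk2 window holds 1 hexamer and the Elapor1 window 0. A hexamer of this kind occurred in 43.71% of all promoters, in 13 of 18 promoters (72.2%) of the genes named for being higher and in 15 of 27 (55.6%) of those named for being lower. Several genes have more than 1 promoter in the table, and many of the lower promoters with a hexamer belong to Mup-ps12. Counted by gene, a hexamer occurred in 11 of 14 higher genes (78.6%) and 7 of 16 lower genes (43.8%). No share by gene was taken over all genes. The other spacings searched, 1 and 4 bases (DR1 and DR4), occurred in 73 and 27 of all promoters and in 0 of those of the named genes. These matches are a description of the letters in the window.

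Pparg and Cd36, one of its targets, were among the 15 higher genes of smallest p. Pparg, the adipogenic PPAR that is low in healthy liver, stood at 7.98, 8.28 and 7.95 in the control livers and 8.63, 8.60 and 8.65 in the SMRT KO livers and did not overlap. Its log2 fold change was 0.56 (adjusted p = 0.223), and the double KO livers were at 8.62, 8.65 and 8.52. Cd36, which takes up fatty acids, stood at 10.22, 9.69 and 9.67 in the control livers and 10.58, 10.49 and 10.46 in the SMRT KO livers (0.65, adjusted p = 0.334). Its double KO levels of 11.12, 11.17 and 11.22 lay above those of every SMRT KO liver, and the difference between these groups did not pass (log2 difference 0.66, adjusted p = 0.0539). Against control, neither passed with all mice. Cd36 passed without control replicate 1 (adjusted p = 0.0342) and Pparg without control replicate 2 (0.0291). Each was the control nearest the SMRT KO livers, so these passes add no support. Macrophages also express Cd36 and Pparg. Macrophage markers had fold changes above 0 in these livers, as given below, and their part in these values was not tested. Other members of the adipocyte marker list, which also holds Pparg, did not rise with it as a group. Fabp4 was lower without overlap (log2 fold change -0.68, adjusted p = 0.724). The log2 fold change was -0.32 for Cidec and 0.18 for Lpl, and the list median was -0.11.

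Regulators of lipoprotein lipase and of plasma triglyceride were among the genes with the smallest p in both directions. Angptl8, a liver-secreted, feeding-induced inhibitor of lipoprotein lipase, stood at 8.71, 8.33 and 8.45 in the control livers and 9.07, 9.37 and 9.33 in the SMRT KO livers (log2 fold change 0.76, adjusted p = 0.194). Apoa5, an apolipoprotein that aids lipoprotein lipase, was higher by 0.23 on the log2 scale (adjusted p = 0.826). Apoa4, an apolipoprotein of chylomicrons that the liver makes in response to triglyceride, was lower, at 10.49, 10.89 and 11.12 in the control livers and 10.20, 10.18 and 9.97 in the SMRT KO livers (-0.71, adjusted p = 0.417). None of the 3 passed, and the groups did not overlap in any of them. Angptl4, a relative of Angptl8, had a log2 fold change of -0.305. Of the 16 genes of this list 6 were above 0, with a median of -0.017. At an unadjusted p under 0.05, 2 were higher and 1 lower, against 2.66% and 3.34% of all genes. Without overlap, 4 were higher and 2 lower, against 3.8% and 4.36% of all genes.

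Fatty acid synthesis genes had fold changes on both sides of 0, with quartiles of -0.11 to 0.14. The 16 fatty acid synthesis genes had a median of 0.048, with 10 above 0, where their median in double KO against control livers, which shares the control mice, was 0.83. Pnpla3, a lipid droplet lipase under lipogenic control, was the member with an unadjusted p under 0.05. It stood at 6.32, 6.32 and 6.41 in the control livers and 6.91, 6.83 and 6.82 in the SMRT KO livers, without overlap (0.50, adjusted p = 0.694). Its double KO levels, 10.46, 10.02 and 9.74, lay far higher (log2 difference from SMRT KO 3.22, adjusted p = 6.3e-05). Of 20 genes of triglyceride assembly and droplets, 6 were above 0 (median -0.074). Cd36 was the higher member at an unadjusted p under 0.05 and Plin2, the droplet coat protein, the lower one (-0.24, adjusted p = 0.826).

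Most fatty acid oxidation genes had fold changes below 0. Of 18 mitochondrial oxidation and ketogenesis genes 5 were above 0, and the median was -0.077, in a range of -0.11 to -0.0072 over the alternatives, and -0.018 without SMRT KO replicate 3. Those with an unadjusted p under 0.05 were 0 higher and 2 lower. The lower ones were Cpt1a, the carnitine transferase that admits fatty acids to mitochondria (11.98, 12.00 and 11.92 in the control livers and 11.76, 11.78 and 11.80 in the SMRT KO livers; -0.19), and Acadvl, the very-long-chain acyl-CoA dehydrogenase (-0.15). Ppara, the receptor that induces this pathway in fasting, was lower without overlap, at 10.62, 10.47 and 10.46 in the control livers and 10.39, 10.30 and 10.21 in the SMRT KO livers (-0.22, adjusted p = 0.826). The 17 peroxisomal and PPAR alpha target genes had a median of 0.007, and the sign differed when SMRT KO replicate 1 or 2, or control replicate 1 or 3, was left out. Their double KO median was 0.51.

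The receptors and the corepressor's partners had fold changes close to 0 in most cases. Of 25 measured nuclear receptors, 2 were higher (Pparg and Rarb) and 2 lower (Ppara and Rxrb) at an unadjusted p under 0.05, with a median of -0.029. Rxrb, a shared partner of many of these receptors, had a log2 fold change of -0.19. For Thra, the thyroid hormone receptor alpha, it was -0.19. Among 11 measured subunits and partners of the corepressor complex the median was -0.0028. Tbl1x, a core subunit of the SMRT and NCoR complex, was the one with an unadjusted p under 0.05, at 9.04, 9.02 and 9.17 in the control livers and 9.30, 9.25 and 9.40 in the SMRT KO livers (0.24, adjusted p = 0.633). The log2 fold change was 0.18 for its close relative Tbl1xr1 and -0.13 for the deacetylase Hdac1. Without control replicate 1 these were 0.076 and -0.24. Of 12 coactivators, 0 were higher and 0 lower at an unadjusted p under 0.05 in limma, and the median was -0.019.

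Thyroid hormone action, the subject named in the title of the series, was followed through genes that the hormone induces in liver. Of 13 measured thyroid hormone-induced genes 3 were above 0, with a median of -0.15 and quartiles of -0.22 to -0.035. For each mouse, the median over members of the log2 level minus the gene's mean over the 6 livers, called the per-mouse median here, was taken. The per-mouse medians were 0.057, -0.014 and 0.13 in controls and 0.066, 0.064 and -0.27 in SMRT KO livers, so SMRT KO replicate 3 alone was low and the other 5 livers overlapped. Without that mouse the list median was -0.049. Dio1, the deiodinase that makes active hormone, showed the same mouse at the bottom, with 11.25, 11.26 and 11.25 in the control livers and 10.97, 10.73 and 9.67 in the SMRT KO livers. Its groups did not overlap, and its log2 fold change of -0.80 became -0.40 without that mouse. Cpt1a, described above, is also a member. The log2 fold change was -0.15 for Bcl3, -0.24 for Gpd2, a mitochondrial glycerol phosphate dehydrogenase, and 0.081 for Pck1, a gluconeogenic enzyme. Without SMRT KO replicate 3 it was -0.054 for Bcl3, -0.053 for Gpd2 and 0.076 for Pck1. Thrsp (0.049), Fasn (-0.035) and Me1 (-0.20) each changed sign when a single SMRT KO or control mouse was left out.

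Serpina7 had the smallest p among genes of hormone transport. It encodes thyroxine-binding globulin, the plasma carrier of thyroid hormone, and stood at 8.42, 9.50 and 8.19 in the control livers and 10.37, 9.95 and 10.43 in the SMRT KO livers, without overlap (log2 fold change 1.55, adjusted p = 0.326). Without control replicate 2, the highest control, it passed (adjusted p = 0.0291), which adds no support because leaving out that mouse widens the gap. Double KO livers were at 8.24, 8.22 and 7.74, near the controls, and the gap from SMRT KO to double KO livers passed (log2 difference -2.19, adjusted p = 0.0113). That gap reuses the SMRT KO values by which Serpina7 was named. Over the 8 transport and binding genes the median log2 fold change was -0.02. The log2 fold change was -0.025 for Ttr, transthyretin, another plasma carrier, -0.12 for Slco1b2, a hepatocyte importer, and -0.19 for Slc16a10, another transporter. Slco1b2 was at -0.065 without SMRT KO replicate 3, and Slc16a10 at -0.092 without control replicate 1.

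Genes of sexually dimorphic liver expression included some of the widest differences. The pattern of growth hormone pulses sets which of these genes the liver expresses, through STAT5b. All mice here were female. A1bg, a plasma glycoprotein that is female-predominant in mouse liver, stood at 9.91, 10.95 and 9.48 in the control livers and 11.32, 12.23 and 12.26 in the SMRT KO livers (1.82, adjusted p = 0.326). Hao2, a peroxisomal hydroxyacid oxidase, stood at 8.91, 8.49 and 8.17 in the control livers and 9.60, 9.42 and 9.32 in the SMRT KO livers (0.92, adjusted p = 0.326). Neither gene's groups overlapped. A1bg passed without control replicate 2 (adjusted p = 0.0371), its highest control, which adds no support because leaving out that mouse widens the gap. Of 17 female-biased genes 10 were above 0, with 3 higher and 0 lower at an unadjusted p under 0.05, and the median of 0.088 was 0.0015 without control replicate 2 and 0.19 without control replicate 3. Members spread from A1bg down to Cyp3a16, a female-predominant cytochrome P450, whose log2 fold change of -1.38 had a 95% interval of -3.76 to 1.00.

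Male-biased genes and growth hormone signalling genes had more lower than higher members at an unadjusted p under 0.05. Elovl3, a fatty acid elongase, stood at 7.55, 8.83 and 8.77 in the control livers and 7.98, 6.96 and 5.94 in the SMRT KO livers (-1.42, adjusted p = 0.826), with control replicate 1 inside the SMRT KO range. Without SMRT KO replicate 3 it was -0.91 and without control replicate 1 -1.84. Its difference between double KO livers, at 9.56, 9.25 and 10.75, and SMRT KO livers passed (adjusted p = 0.0473). Over 19 male-biased genes the median was -0.023 (0.038 without SMRT KO replicate 3 and -0.16 without control replicate 1), with 1 higher (C6, a complement component, 0.45) and 3 lower (Elovl3, Mup20 and Cyp7b1) at an unadjusted p under 0.05. Among 12 growth hormone and STAT5-dependent genes 0 were higher and 3 lower, each of the latter without overlap. Cish, an inhibitor of cytokine signalling that STAT5 induces, stood at 6.85, 7.25 and 7.18 in the control livers and 6.78, 6.67 and 6.78 in the SMRT KO livers (-0.35). Stat5b, the growth hormone-responsive transcription factor, stood at 9.67, 9.84 and 9.75 in the control livers and 9.47, 9.16 and 9.60 in the SMRT KO livers (-0.35). Stat5a, its close relative, stood at 7.63, 7.84 and 7.54 in the control livers and 7.21, 7.53 and 7.47 in the SMRT KO livers (-0.27). In all 3 genes the gap between the groups was smaller than the spread among the SMRT KO livers. The adjusted p of these 3 was 0.727, 0.727 and 0.826, and the log2 fold change of Ghr, the growth hormone receptor, was -0.071. The list median of -0.045 had the opposite sign without SMRT KO replicate 3 or control replicate 2.

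Mup-ps12, annotated as a pseudogene of the major urinary protein cluster, had the largest lower fold change of the genes above background. It stood at 9.987, 10.191 and 10.135 in the control livers and 8.430, 7.140 and 8.252 in the SMRT KO livers, and the double KO livers at 10.903, 10.996 and 10.772. Its log2 fold change was -2.16 (adjusted p = 0.0924), and the gap from SMRT KO to double KO livers passed (2.95, adjusted p = 0.00204). That gap reuses the SMRT KO values by which the gene was named. Against control Mup-ps12 passed without SMRT KO replicate 2 (adjusted p = 0.00184). That mouse was the SMRT KO liver set apart, so leaving it out narrows the spread and this pass adds no support. Members of this family are near-identical copies, so the probe set may read several of them and its value is uncertain. Of the 6 single-symbol Mup genes, 3 were above background and 1 had a fold change above 0. Mup20, which encodes the male pheromone darcin, stood at 10.69, 10.92 and 11.04 in the control livers and 10.70, 9.90 and 10.37 in the SMRT KO livers (-0.56).

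Bile acid genes mostly had fold changes slightly below 0, and Abcc4 stood out on the other side. The per-mouse medians over 20 bile acid synthesis and transport genes were 0.057, 0.039 and 0.12 in controls and -0.036, -0.065 and -0.018 in SMRT KO livers, which did not overlap. The median log2 fold change was -0.036, ranging over the alternatives from -0.13 to -0.02, and 4 members were above 0. At an unadjusted p under 0.05, 4 were lower. Slc27a5 and Baat, enzymes of the pathway that joins bile acids to an amino acid, had log2 fold changes of -0.30 and -0.35. Cyp7b1, an oxysterol hydroxylase of the alternative synthesis pathway, stood at 10.001, 10.182 and 10.390 in the control livers and 9.962, 9.625 and 9.001 in the SMRT KO livers (-0.66) and was lowest in SMRT KO replicate 3, without which it was -0.40. The log2 fold change was -0.21 for Abcb4, the canalicular phospholipid exporter, and -0.12 without SMRT KO replicate 3. For Cyp7a1, the rate-limiting enzyme of classical synthesis, it was -0.32 with a 95% interval of -1.08 to 0.44.

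Abcc4, a basolateral exporter of bile acids and organic anions, was the higher member. It stood at 7.03, 6.78 and 6.76 in the control livers and 7.47, 7.57 and 7.53 in the SMRT KO livers, without overlap (log2 fold change 0.66, adjusted p = 0.324). Double KO livers were higher still, at 8.96, 9.12 and 8.64, and that difference from SMRT KO livers passed (1.38, adjusted p = 0.00186). Abcc4 is also counted among 15 NRF2 targets, of which 10 were above 0 with a median of 0.11. Hmox1, heme oxygenase, was the other member of that list with an unadjusted p under 0.05. It stood at 6.76, 6.58 and 6.88 in the control livers and 7.14, 7.05 and 7.61 in the SMRT KO livers (0.53, adjusted p = 0.624). Macrophages express Hmox1 too, and their part in this value was not tested. Of 18 genes induced through the xenobiotic receptors 7 were above 0, with a median of -0.032, and 1 was higher and 3 lower without overlap. At an unadjusted p under 0.05, 2 were higher and 0 lower. The higher ones were Aldh1a7 (0.30), an aldehyde dehydrogenase, and Cyp3a11 (0.19), a main drug-metabolizing cytochrome P450.

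Cholesterol genes had fold changes below 0 with a single exception, and the controls differed widely. Of 19 genes of cholesterol synthesis and uptake, 1 was above 0, and at an unadjusted p under 0.05 in limma 0 were higher and 0 lower. The per-mouse medians were -0.20, 0.14 and 0.28 in controls and -0.032, -0.037 and -0.06 in SMRT KO livers. The controls thus spread on both sides of the SMRT KO livers. The list median of -0.10 was -0.26 without control replicate 1 and -0.013 without control replicate 3. LXR targets had a median of 0.039 over 13 genes, against 0.46 in double KO livers, and the sign was the opposite without SMRT KO replicate 3.

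**Figure D3:**
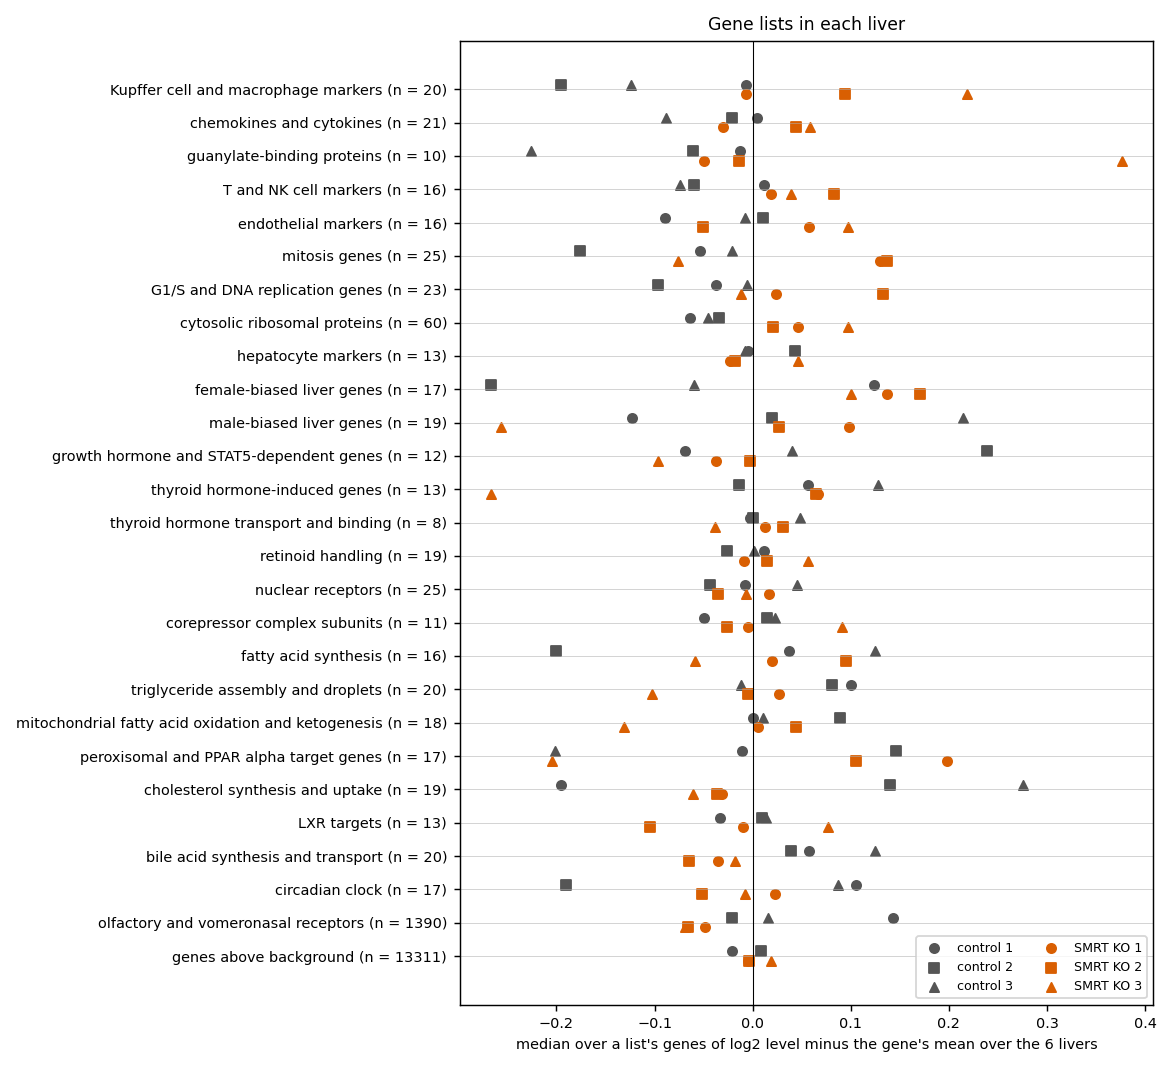
Median over each list's genes of the log2 level minus the gene's mean over the 6 livers, for each control (gray) and SMRT KO (orange) liver; n is the number of genes. Ribosomal protein genes were higher in every SMRT KO liver than in any control, bile acid genes and olfactory and vomeronasal receptors lower, and in cholesterol synthesis genes the 3 controls spread more widely than the 3 SMRT KO livers.

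Macrophage markers had fold changes above 0 in every measured member. Kupffer cells are the resident macrophages of the liver sinusoid. All 20 of 20 measured Kupffer cell and macrophage markers had a log2 fold change above 0, against 50.4% of all genes, with a median of 0.21 and quartiles of 0.14 to 0.29. At an unadjusted p under 0.05, 8 were higher and 0 lower, against 2.66% and 3.34% of all genes. None passed the adjusted test. The 8 became 3 without SMRT KO replicate 3, 4 without SMRT KO replicate 2 or control replicate 3 and 2 without control replicate 2, while 18 to 20 members stayed above 0 whichever control or SMRT KO mouse was left out. The summed linear level of the list was 8023 to 8690 in control and 9237 to 10580 in SMRT KO livers, without overlap. The per-mouse medians, which weigh each gene equally, were -0.0068, -0.20 and -0.12 in controls and -0.0072, 0.094 and 0.22 in SMRT KO livers, where control replicate 1 and SMRT KO replicate 1 coincided. In bulk liver, more cells of a type and more RNA per cell cannot be told apart, and the same holds for fewer and less. The list median stayed above 0 in every alternative run (0.15 to 0.30), and in double KO livers it was 0.0077.

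Individual macrophage genes showed how uneven the mice were. Cd5l, a scavenger-receptor protein secreted by macrophages, stood at 9.42, 9.38 and 9.39 in the control livers and 9.61, 9.78 and 9.79 in the SMRT KO livers, without overlap (0.33, adjusted p = 0.436). C1qb, a subunit of the first complement component, stood at 9.42, 9.39 and 9.45 in the control livers and 9.58, 9.74 and 9.93 in the SMRT KO livers (0.33). Vsig4, a complement receptor of Kupffer cells, stood at 10.18, 9.82 and 10.12 in the control livers and 10.25, 10.48 and 10.27 in the SMRT KO livers (0.29). In these 3 genes every SMRT KO liver lay above every control. Adgre1, a surface receptor that defines mouse macrophages, stood at 8.34, 8.27 and 8.33 in the control livers and 8.33, 8.71 and 8.96 in the SMRT KO livers, so SMRT KO replicate 1 lay among the controls and replicates 2 and 3 above them. Clec4f, a lectin restricted to Kupffer cells, stood at 9.30, 8.77 and 8.92 in the control livers and 9.21, 9.12 and 9.22 in the SMRT KO livers (0.19, adjusted p = 0.906), and its groups overlapped. Monocyte and dendritic cell markers had a median of 0.023 over 14 genes and a summed level of 9569 to 10150 in control and 9315 to 9391 in SMRT KO livers.

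Chemokines and lymphoid markers had more members above than below 0. Cxcl13, a chemokine that attracts B cells, stood at 8.18, 7.83 and 8.18 in the control livers and 9.12, 9.62 and 8.56 in the SMRT KO livers (1.03, adjusted p = 0.505). Double KO livers were at 8.18, 7.42 and 7.78, none of them above the highest control. Of 21 chemokines and cytokines 5 were higher and 0 lower at an unadjusted p under 0.05. After Cxcl13 they were Ccl3 (0.41), Cxcl9 (0.43), Ccl5 (0.36) and Ccl4 (0.22), ligands that draw T cells and monocytes. Without SMRT KO replicate 3, Cxcl9 was at 0.24 and Ccl5 at 0.17, while Ccl3 was at 0.43 and Ccl4 at 0.25. The 5 became 2 without SMRT KO replicate 3 (with 1 lower) or control replicate 3, and 3 without control replicate 1. T and NK cell markers were above 0 in 14 of 16 genes, and their per-mouse medians, 0.012, -0.06 and -0.074 in controls and 0.019, 0.083 and 0.039 in SMRT KO livers, did not overlap. The median difference was 0.063, and 9 of the markers were above background. Cd3e, a subunit of the T cell receptor complex, stood at 6.17, 5.88 and 5.90 in the control livers and 6.27, 6.28 and 6.53 in the SMRT KO livers (0.38, adjusted p = 0.505). Of 13 B cell markers 10 were above 0, and at an unadjusted p under 0.05 in limma 0 were higher and 0 lower. Summed levels were 987.9 to 1070 in control and 1077 to 1110 in SMRT KO livers for T and NK markers and 1589 to 1724 in control and 1596 to 1953 in SMRT KO livers for B cell markers.

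Interferon-related genes split by family and by mouse. The guanylate-binding proteins, interferon-gamma-induced GTPases, had a median of 0.22 over 10 genes, with 4 higher and 1 lower at an unadjusted p under 0.05. The per-mouse medians were -0.013, -0.061 and -0.23 in controls and -0.049, -0.014 and 0.38 in SMRT KO livers, so SMRT KO replicate 3 stood alone on the high side. Without that mouse the median was 0.084 and 2 were higher, as were 2 without control replicate 2 and 1 without control replicate 3. Gbp4 stood at 6.31, 6.13 and 5.75 in the control livers and 6.25, 6.36 and 7.16 in the SMRT KO livers, highest in SMRT KO replicate 3 (0.53, and 0.24 without that mouse). Gbp10 stood at 9.08, 8.84 and 8.71 in the control livers and 9.11, 9.43 and 9.43 in the SMRT KO livers, without overlap. Gbp3 stood at 6.89, 6.64 and 6.82 in the control livers and 6.05, 6.56 and 6.67 in the SMRT KO livers, lowest in SMRT KO replicate 1. The 27 genes of the general interferon response had a median of 0.038, with 0 higher and 1 lower at an unadjusted p under 0.05. The lower one was Xaf1, an interferon-inducible partner of the apoptosis inhibitor XIAP, at 8.599, 8.427 and 8.647 in the control livers and 7.887, 8.048 and 7.996 in the SMRT KO livers (-0.58, adjusted p = 0.0924). Double KO livers stood at 8.525, 8.643 and 8.546, and their difference from SMRT KO livers passed (0.59, adjusted p = 0.00809). That difference reuses the SMRT KO values by which Xaf1 was named.

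Among endothelial markers Lyve1 had the largest fold change. Lyve1, a hyaluronan receptor of sinusoidal and lymphatic endothelium, stood at 8.11, 8.05 and 8.03 in the control livers and 8.88, 8.43 and 9.19 in the SMRT KO livers, without overlap (0.77, adjusted p = 0.505). Oit3 (0.27), a zona pellucida domain protein of sinusoidal endothelium, and Emcn (0.25), endomucin, also had an unadjusted p under 0.05. These 3 became 1 when SMRT KO replicate 1 or 3, or control replicate 1 or 2, was left out. Cdh5, the junction cadherin that defines endothelium, stood at 9.39, 9.27 and 9.38 in the control livers and 9.42, 9.49 and 9.51 in the SMRT KO livers (0.12). Over 16 markers the median was 0.064, which was 0.017 without control replicate 1, and the summed level was 8606 to 9825 in control and 9824 to 10430 in SMRT KO livers. The median log2 fold change was -0.017 for 16 stellate cell markers and 0.014 for 8 cholangiocyte markers. Among markers of cells that should be absent, Cela1 of the pancreatic acinus stood at 6.85, 6.79 and 6.54 in the control livers and 6.58, 6.90 and 6.49 in the SMRT KO livers, and the 9 acinar markers summed to 447.8 to 493.7 in control and 422.4 to 506.5 in SMRT KO livers.

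Mitosis genes stood highest in SMRT KO replicates 1 and 2. Of 25 mitosis genes 21 were above 0, the median was 0.13, and 7 were higher and 0 lower at an unadjusted p under 0.05, against 2.66% and 3.34% of all genes. The 7 were 10 without SMRT KO replicate 3 and 5 to 7 without any other single control or SMRT KO mouse. Ccnb2, a mitotic cyclin, stood at 6.77, 6.44 and 6.56 in the control livers and 7.02, 7.46 and 6.84 in the SMRT KO livers (0.52, adjusted p = 0.654). Cdk1, its kinase, stood at 6.88, 6.61 and 6.82 in the control livers and 7.34, 7.47 and 6.92 in the SMRT KO livers (0.47, adjusted p = 0.753). In both genes SMRT KO replicate 3 lay just above the highest control. Plk1 and Aurkb, kinases of mitotic entry and chromosome segregation, had log2 fold changes of 0.33 and 0.36. Top2a, the topoisomerase of dividing cells, had one of 0.42 but was not above background, and 11 of the 25 mitosis genes were. The per-mouse medians were -0.053, -0.18 and -0.021 in controls and 0.13, 0.14 and -0.077 in SMRT KO livers, so SMRT KO replicate 3 lay below control replicates 1 and 3.

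Genes of the earlier cell cycle had a smaller median. Of 23 genes of the G1 to S transition and DNA replication, 18 were above 0 (median 0.079), and Cdt1, a replication licensing factor, was the member with an unadjusted p under 0.05, with levels of 6.64, 6.99 and 6.99 in the control livers and 7.04, 7.23 and 7.09 in the SMRT KO livers (0.25, and 0.13 without control replicate 1). E2f1, which drives entry into S phase, and Gins2, a part of the replicative helicase, had groups that did not overlap (log2 fold changes 0.14 and 0.13). The median of mitosis genes after subtracting the median fold change of all genes at the same level was 0.099.

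**Figure D4:**
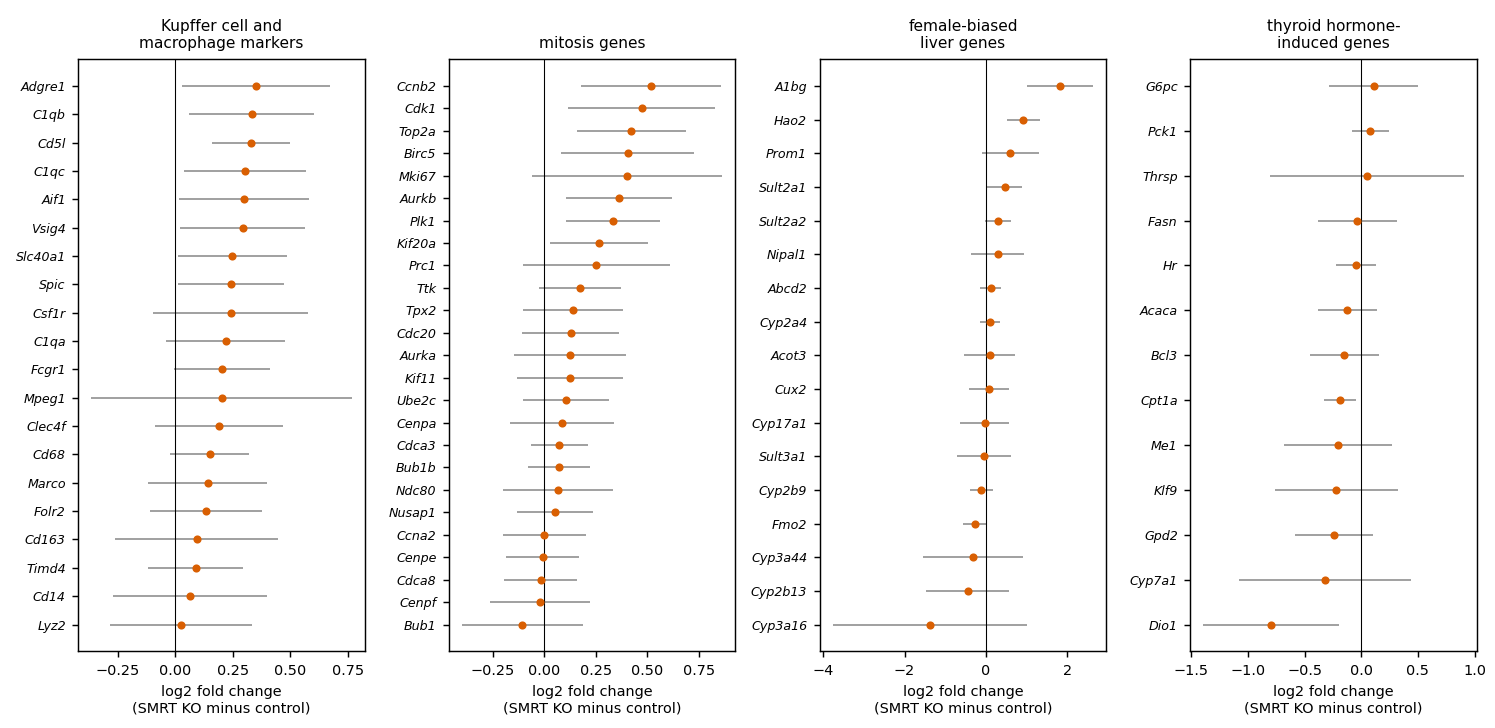
Log2 fold change (SMRT KO minus control) of each measured member of 4 lists, with its 95% interval from the limma fit (not adjusted for multiple tests); each panel has its own axis. All 20 macrophage markers lay above 0, as did 21 of 25 mitosis genes, 10 of 17 female-biased genes and 3 of 13 thyroid hormone-induced genes.

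Ribosomal protein genes, summarised per mouse, were higher in every SMRT KO liver than in any control. Of 60 measured genes 51 were above 0, with a median of 0.11 and quartiles of 0.05 to 0.15. The per-mouse medians were -0.064, -0.034 and -0.045 in controls and 0.046, 0.02 and 0.097 in SMRT KO livers, without overlap. Summed linear levels were 61470 to 63670 in control and 66080 to 70410 in SMRT KO livers. At an unadjusted p under 0.05, 10 were higher and 0 lower, and 15 against 1 had groups that did not overlap (3.8% and 4.36% of all genes). Over all alternatives the median ran from 0.072 to 0.11, and minus the median of genes of the same level it was 0.11. The double KO median against the same controls was 0.083.

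Rpl29, a protein of the large ribosomal subunit, stood at 11.60, 11.45 and 11.42 in the control livers and 11.79, 11.77 and 11.84 in the SMRT KO livers (0.31, adjusted p = 0.417). Rpl32 stood at 10.22, 10.18 and 10.16 in the control livers and 10.41, 10.38 and 10.48 in the SMRT KO livers (0.24). Rpl35 stood at 11.09, 11.04 and 11.09 in the control livers and 11.23, 11.19 and 11.29 in the SMRT KO livers (0.17). In each of these genes of the large subunit every SMRT KO liver lay above every control. Ribosomal protein genes have many processed pseudogene copies, so single members are uncertain. The same measures were taken for other abundant complexes. The 77 respiratory chain subunits had a median of -0.016 and the 38 proteasome subunits one of -0.0054, with summed levels of 107300 to 108700 in control against 104800 to 110500 in SMRT KO livers for the former.

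**Figure D5:**
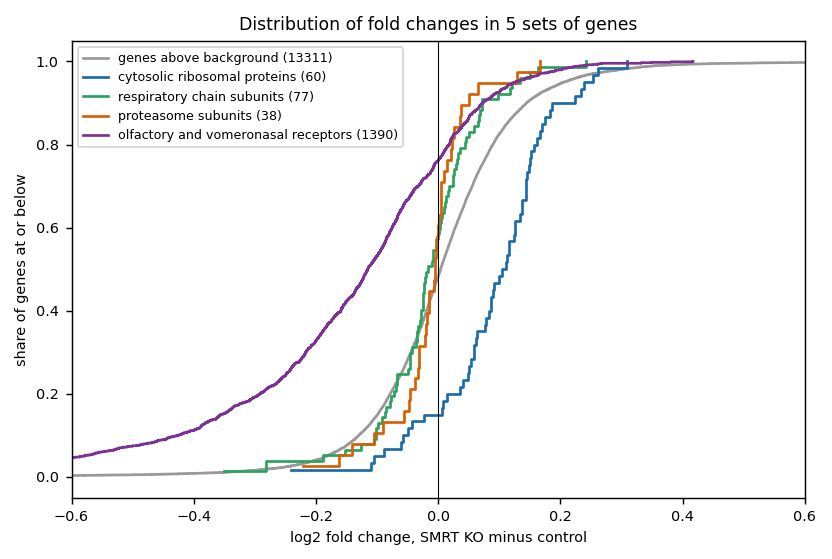
Cumulative distribution of log2 fold changes (SMRT KO minus control) for 5 sets of genes, with the number of genes in brackets; the x axis is limited to between -0.6 and 0.6, so values outside it are not drawn. The curve of 60 ribosomal protein genes lay to the right of that of the 13311 genes above background and that of 1390 olfactory and vomeronasal receptors to the left.

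A small shift also followed the level of the gene. With genes divided into 10 equal bins of mean level, the median log2 fold change was -0.058 in the dimmest bin, 0.031 in the fifth, and -0.017 and -0.016 in the ninth and the brightest. In the fifth bin 63.3% of genes were above 0, and in the dimmest 33.3%. The dimmest bin held 841 receptor genes, and without them its median was -0.022. The receptors themselves had a median of -0.12, with 332 of 1390 above 0, and 12 higher against 245 lower without overlap. Their per-mouse medians were 0.14, -0.021 and 0.015 in controls and -0.048, -0.066 and -0.069 in SMRT KO livers, so control replicate 1 was set apart on the high side, and without it the receptor median was -0.064. Of them, 81 lay above the background bound. Over the alternatives the receptor median ran from -0.14 to -0.015.

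Several other genes of smallest p belonged to no list. Mir122, the locus of the main hepatocyte microRNA, read here by a probe set annotated to that locus, stood at 6.05, 6.77 and 5.91 in the control livers and 8.24, 7.55 and 7.84 in the SMRT KO livers (1.63, adjusted p = 0.326). Etfbkmt, a mitochondrial methyltransferase, stood at 8.82, 8.52 and 8.87 in the control livers and 9.48, 9.14 and 9.33 in the SMRT KO livers (0.58). Double KO livers were at 8.57, 8.49 and 8.44. The difference between the 2 knockout groups passed for Etfbkmt (log2 difference -0.82, adjusted p = 0.00997), and it reuses the SMRT KO values by which Etfbkmt was named. The remaining higher genes chosen by the smallest p were Rassf4 (0.45), a Ras-association domain protein, Slain1 (0.38), which promotes microtubule growth, and Wdfy1 (0.38), an endosomal protein. None passed, with adjusted p of 0.194, 0.324 and 0.334.

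The lower genes of smallest p included 2 that rose in double KO livers. Ginm1, a glycosylated membrane protein, stood at 8.92, 8.96 and 8.95 in the control livers and 8.45, 8.59 and 8.60 in the SMRT KO livers. Double KO livers were at 9.56, 9.69 and 9.44, above every control. Its log2 fold change was -0.40 in SMRT KO (adjusted p = 0.326) and 0.62 in double KO livers against the same controls (adjusted p = 0.00821). Sel1l3 stood at 8.16, 8.44 and 8.22 in the control livers and 7.94, 7.91 and 7.84 in the SMRT KO livers, and double KO livers at 8.76, 8.77 and 8.86. Against control its log2 fold change was -0.38 in SMRT KO (adjusted p = 0.394) and 0.52 in double KO livers (0.0225). The gap from SMRT KO to double KO livers passed for Ginm1 (adjusted p = 0.000801) and for Sel1l3 (0.00186). Both gaps reuse the SMRT KO values by which these genes were named. Others of this set were Itih5 (-0.67), a hyaluronan-binding inhibitor chain, Slc25a21 (-0.47), a mitochondrial oxodicarboxylate carrier, Npr2 (-0.65), the receptor of C-type natriuretic peptide, and Shmt1 (-0.35), the cytosolic serine hydroxymethyltransferase of folate metabolism. Their adjusted p lay at 0.194, 0.326, 0.394 and 0.431, and the groups of each did not overlap. Rtn4rl1 (-0.63), Slc22a27 (-0.51), Grtp1 (-0.41), Dmxl2 (-0.41), Olfr935 (-0.39) and Dglucy (-0.31) completed the set and did not pass.

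The largest fold changes without overlap held several genes of multicopy families. On the lower side, after Mup-ps12, they were Btbd35f1 (-1.94), Vmn1r91 (-1.82), Gm38418 (-1.72) and Vmn1r127 (-1.53). Btbd35f1 stood at 9.57, 7.86 and 8.39 in the control livers and 6.94, 6.72 and 6.34 in the SMRT KO livers, and its fold change was -1.45 without control replicate 1. Without that mouse Vmn1r91 was at -1.27, Gm38418 at -1.45 and Vmn1r127 at -1.11. Vmn1r91 and Gm38418 exceeded the background bound only in the control mean (6.53 and 6.50, against 4.71 and 4.78 in SMRT KO). The Vmn1r genes belong to the receptors that set this bound. Copies in multicopy families may share probes, so these values are uncertain. On the higher side they were Cyp26a1, A1bg, Mir122, Serpina7 and 2610507I01Rik, a gene of unnamed function at 6.138, 6.345 and 7.665 in the control livers and 8.001, 7.988 and 8.298 in the SMRT KO livers (1.38). With all mice it did not pass (adjusted p = 0.456). Its control replicate 3, the highest control, was set apart, and without that mouse it passed (adjusted p = 0.00269). Leaving out that mouse widens the gap, so this pass adds no support.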

How the data were processed

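Liver RNA (200 ng per mouse) was amplified, labelled with biotin and hybridised to Affymetrix whole-transcript arrays. The deposited values are on the log2 scale and come from RMA, as named per the submitters' processing notes with no version. RMA quantile-normalizes the arrays together, so a shift common to most genes is removed. Of 41345 probe sets, the platform annotation gave 1 symbol to 23521 and several to 1814 and did not list 16010, and 23328 of the first were found in a RefSeq table (GRCm38.p6). The probe set of highest mean was kept where a gene had several (1082 of 22180 genes). Array medians lay between 5.96 and 6.02.

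All 9 arrays were fitted as 3 group means with limma 3.58.1 in R 4.3.3, with no block (6 residual and 3.36 prior degrees of freedom), and the Benjamini-Hochberg adjustment covered 22180 genes. Calls needed an adjusted p under 0.05 from limma's two-sided test. The steps were tested on simulated data. Gene lists were described by counts and medians with no set test. Alternatives included other fits, normalizations, filters and probe set rules, and leaving out each mouse.

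The genotypes and gene lists compared were chosen with earlier results of these data known. Named genes were the called gene, the 15 higher and 15 lower genes above background with the smallest p, the 5 largest fold changes each way without overlap, up to 5 list members with the smallest p, and Thrsp, Dio1, Me1 and Fasn. Ulk1, Wipi2, Npc1, Lrat, Aldh1a1, Dhrs3, Cyp26b1, Cyp7a1, Cyp3a16, Etnppl, Fabp4, Lpl and the defining cell type markers were named outside this rule, after their values were seen.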

Additional observations from a re-analysis of the deposited data

How the results depend on the processing

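Over 20 alternatives, 172 of 182 genes checked were called in none, and 32 of 65 lists kept the sign of their median. The 1 called gene became 0 with only the 6 arrays, 2 (both higher) with dim genes left out and 2 (both higher) with the replicate number as a block. Deviations of same-numbered mice were weakly correlated (-0.085 to 0.12). With 3 mice per group this cannot decide whether the number pairs them, and no label says that it does. Leaving out 1 mouse gave 0 to 23 called genes, 0 to 5 higher and 0 to 18 lower. The 23 came without control replicate 2, with 5 without control replicate 3, 3 without control replicate 1, 2 without SMRT KO replicate 2 and 0 without SMRT KO replicate 1 or 3. With dim genes left out, fewer genes were tested, and 687 (289 lower) had an unadjusted p under 0.05 and 977 had groups that did not overlap. Over all genes the count without overlap was 1809 with all mice and 3346 to 4546 with 1 control or SMRT KO mouse left out. It was 7849 without SMRT KO replicate 3 and control replicate 1, an alternative chosen after seeing the data. Fewer samples make separation easier. Other causes were not tested. Besides Elapor1, genes called in at least 1 alternative were Ulk2, Cyp26a1, Pparg, A1bg, Serpina7, Cd36, Mup-ps12, Xaf1 and 2610507I01Rik. Of the 182 genes, 170 kept their sign. Signal over background limits lists such as the mitosis, lymphoid and Mup genes, many of whose members lay near the receptor level.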

Other observations

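Zonation genes mark where between the portal and the central vein a hepatocyte sits, and none of them passed the adjusted test in SMRT KO against control livers. Of 15 pericentral genes 3 had a log2 fold change above 0 (median -0.09, range over the alternatives -0.15 to -0.062), with 0 higher and 2 lower at an unadjusted p under 0.05. The lower genes were Gulo, the enzyme of vitamin C synthesis, at log2 levels of 12.16, 12.13 and 12.27 in the control livers and 11.85, 12.00 and 11.80 in the SMRT KO livers (log2 fold change -0.30), and Rhbg, an ammonia channel, at 9.39, 9.06 and 9.22 in the control livers and 8.83, 9.06 and 8.63 in the SMRT KO livers (-0.39). Glul, glutamine synthetase, had a log2 fold change of -0.23, and of -0.11 without SMRT KO replicate 3. Of 14 periportal genes 9 were above 0 (median 0.014), and Etnppl, an ethanolamine-phosphate phospholyase, had the smallest p. Etnppl stood at 10.08, 9.43 and 10.06 in the control livers and 10.43, 10.44 and 11.24 in the SMRT KO livers, with every SMRT KO liver above every control (log2 fold change 0.85, limma adjusted p = 0.595). Double KO livers were at 8.64, 8.38 and 8.57, where it fell by 1.32 on the log2 scale against control (adjusted p = 0.0389), and the difference between the knockout groups passed (-2.17, adjusted p = 0.00367).

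No gene of iron handling or of the acute phase passed the adjusted test either. Bmp6, the endothelial signal that sets hepcidin, stood at 6.82, 6.69 and 6.92 in the control livers and 7.17, 6.93 and 7.50 in the SMRT KO livers (log2 fold change 0.39, limma adjusted p = 0.775). Without SMRT KO replicate 3 its log2 fold change was 0.24. Slc40a1, the iron exporter ferroportin, had a log2 fold change of 0.25, and it is also counted among the macrophage markers. Of 20 acute phase genes 17 were above 0 with a median of 0.035, which had the opposite sign without SMRT KO replicate 3. Saa4, a serum amyloid protein, stood at 12.27, 12.14 and 12.31 in the control livers and 12.38, 12.42 and 12.58 in the SMRT KO livers (log2 fold change 0.22) and Lbp, which binds bacterial lipopolysaccharide, had a log2 fold change of 0.34. All 11 heat shock genes were above 0, with a median of 0.084 that had the opposite sign without SMRT KO replicate 2, and 1 had an unadjusted p under 0.05. The 17 clock genes had 0 higher and 0 lower at an unadjusted p under 0.05 in limma. Dbp, an output gene of the clock, had a log2 fold change of -0.12.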
